A study of Mus musculus with 6 samples.

Results

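The cathepsin genes Ctsa, Ctsb, Ctsc, Ctsd, Ctse, Ctsh, Ctsk, Ctsl, Ctss and Ctsz were followed in the inflamed mouse bowel. Of 45101 probe sets on the arrays, 22 were assigned by the platform annotation to 1 of these 10 genes and to no other gene. Each gene is described by its probe set with the highest mean over the 6 arrays, and the further probe sets are given beside it. All 10 genes were above the limit for low values and stood among the 10491 genes tested, and 19 of the 22 probe sets were above it. A probe set was above the limit when it exceeded log2 4 on at least 3 arrays.

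Total RNA of whole colon was hybridised to Affymetrix whole-genome mouse expression arrays, with 1 mouse per array and 3 arrays in each group. The deficient mice were PPAR g fl/fl; Lysozyme M cre+, and their control littermates were PPAR g fl/fl; Lysozyme M cre-. All 6 mice were C57BL/6, were 6 to 8 weeks old, carried the floxed Pparg gene, and drank 2.5% dextran sodium sulfate (DSS), which injures the colonic epithelium, until tissue was taken on day 7. Cre sits under the lysozyme M promoter, which is active mainly in macrophages and neutrophils, so deletion is aimed at those cells and not at epithelium, stroma or lymphocytes. Only the deficient mice carried Cre, and effects of Cre and of the deletion cannot be told apart. Every level below is a log2 value, every difference is deficient minus control, and levels of different probe sets cannot be set against each other.

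Cathepsins are proteases of lysosomes and endosomes. Cathepsins B, C, H, K, L, S and Z are cysteine proteases, D and E are aspartic proteases, and A is a serine carboxypeptidase. They are made as inactive proenzymes, and most are carried to acidic compartments by mannose 6-phosphate receptors and activated there by cleavage. Macrophages are rich in them and use them to digest engulfed material, to process antigens and, after secretion, to cut matrix proteins, while intestinal epithelium and fibroblasts make several of them too.

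The arrays were not alike in tissue profile. Deficient replicate 3 and control replicate 1 carried genes of the small intestine, with Apoa1, an apolipoprotein of absorptive cells there, at 15.23 and 15.46, against 3.82 to 7.38 on the other 4 arrays. The mean level of 5 colonocyte markers was 7.69 and 6.22 on these 2 arrays and 10.45 to 11.55 elsewhere, so these 2 arrays departed from the labelled colon. One such array lay in each group, and values without both are given below for each cathepsin gene and for most of the gene lists. On the arrays where small intestine genes were low, Pparg read 8.77 and 8.23 in deficient and 9.91 and 9.54 in control samples. On the arrays with small intestine genes it read 4.15 in the deficient and 5.28 in the control sample. Over all 6 arrays Pparg averaged 7.05 ± 2.53 in deficient and 8.24 ± 2.57 in control samples (SD, n = 3 each), and the groups overlapped. Whether its probes lie in the deleted part is not given in the sources used here. In whole tissue, fewer cells of a type and less RNA per cell cannot be told apart.

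No cathepsin gene passed the test across all genes, which was limma with Benjamini-Hochberg adjustment at an adjusted p under 0.05. None of the 10491 genes did (0.00%). Ctss, Ctsc and Ctsz were higher on each deficient array than on any control array, which makes 3 of 10 genes against 9.36% of all genes tested. None of the 10 was lower on each deficient array than on any control array (4.15% of all genes), so 3 of 10 did not overlap, where 13.5% of all genes did not. Ctss and Ctsc had an unadjusted p under 0.05, 2 of 10 genes, where 7.46% of all genes did. Both were higher, against 5.10% of all genes higher and 2.36% lower at that level. In all, 9 of the 10 genes had a higher mean in deficient samples, against 57.1% of all genes, and the median difference of the 10 was 0.28, against 0.057 over all genes. The members were chosen with results known, so these counts are descriptions.

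**Figure D1:**
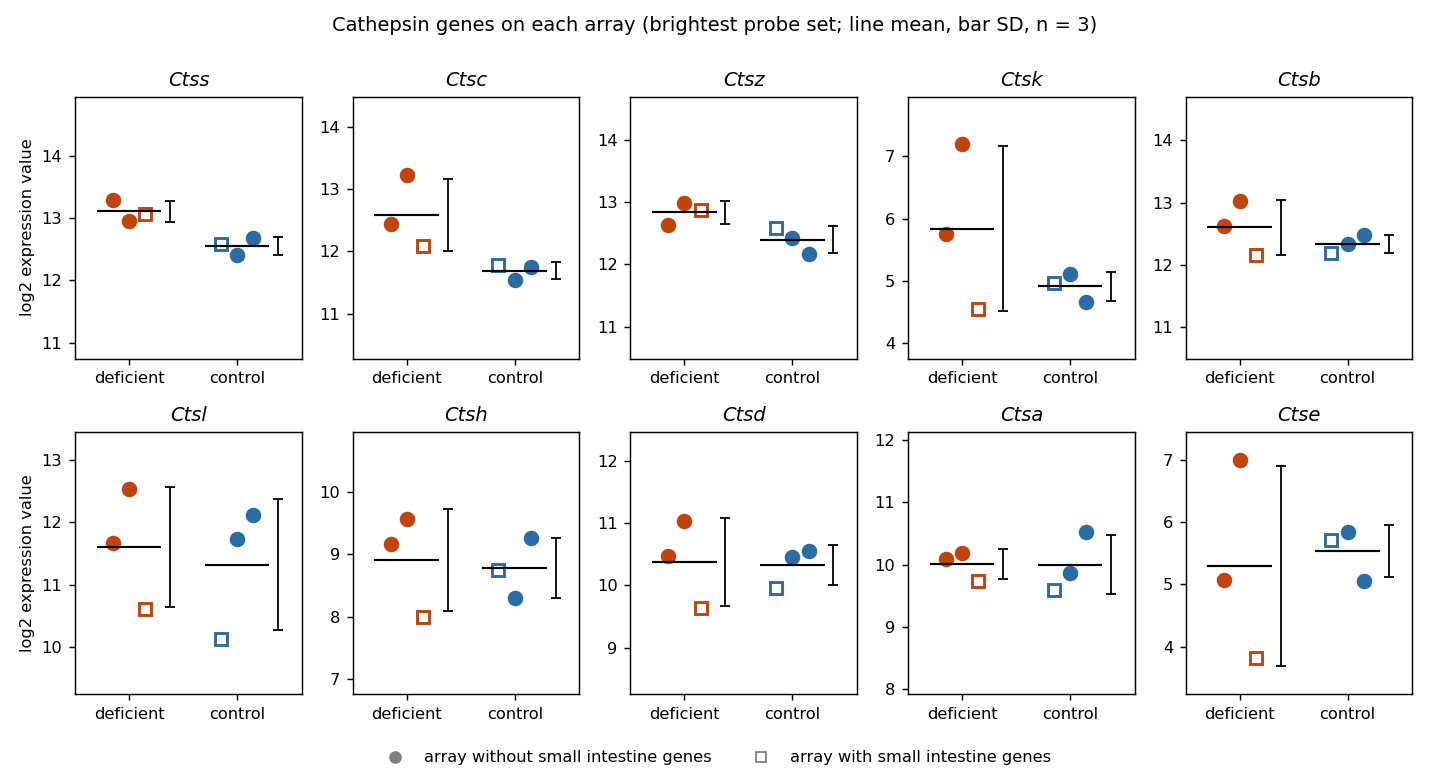
Log2 expression value of each cathepsin gene on each of the 6 arrays, deficient left and control right; lines are means and bars are SD (n = 3), each panel spans the same number of log2 units, and open squares mark the 2 arrays with small intestine genes. The groups stand apart for Ctss, Ctsc and Ctsz and overlap for the other 7 genes.

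Ctss encodes cathepsin S, an endopeptidase of antigen-presenting cells and macrophages that removes the invariant chain from MHC class II and stays active at neutral pH. Its probe set (1448591_at) read 13.29, 12.95 and 13.07 on deficient arrays, against 12.58, 12.40 and 12.67 on control arrays. The lowest deficient value lay above the highest control value, and the 2 arrays with small intestine genes stood inside the range of their own groups. The means were 13.10 ± 0.17 in deficient and 12.55 ± 0.14 in control samples (SD, n = 3 each), which differed by 0.55 or 1.47-fold. The standard error was 0.17, the 95% interval was 0.13 to 0.97, and the limma adjusted p was 0.659. The difference was 0.59 on the 4 arrays without small intestine genes and 0.48 between the 2 arrays with them. It ran from 0.46 to 0.63 when each array was left out in turn.

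Ctsc encodes cathepsin C, a dipeptidyl peptidase that activates granzymes and the serine proteases of neutrophils and mast cells. It read 12.44, 13.23 and 12.09 on deficient arrays, against 11.78, 11.54 and 11.75 on control arrays (1416382_at). The groups did not overlap, and deficient replicate 2 was the highest array. The means were 12.59 ± 0.58 in deficient and 11.69 ± 0.13 in control samples, which differed by 0.90 or 1.86-fold. The standard error was 0.32, the 95% interval 0.12 to 1.67, and limma gave an adjusted p of 0.667. A dimmer probe set (1437939_s_at) differed by 1.08, with 6.59, 7.19 and 5.66 in deficient and 5.68, 5.68 and 4.83 in control samples, and there the groups overlapped by the array with small intestine genes. The Ctsc difference was 1.19 on the 4 arrays without small intestine genes, 0.31 between the 2 arrays with them, and 0.58 without deficient replicate 2.

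Ctsz encodes cathepsin Z, also called X, a carboxypeptidase of myeloid cells that removes single residues. It read 12.63, 12.99 and 12.88 on deficient arrays, against 12.59, 12.42 and 12.16 on control arrays (1417868_a_at). The groups were separate by a narrow gap, between deficient replicate 1 and control replicate 1. The means were 12.83 ± 0.18 in deficient and 12.39 ± 0.22 in control samples, a difference of 0.44 or 1.36-fold with a 95% interval of -0.03 to 0.91 and a limma adjusted p of 0.679. Its 3 probe sets gave differences from 0.44 to 0.48, and on 1 of them (1417870_x_at) the groups overlapped. The value was 0.52 on the 4 arrays without small intestine genes and 0.29 between the 2 arrays with them.

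The promoters of these 3 genes are shown because they were the ones whose groups did not overlap. The windows run from 250 bases before to 50 bases after the annotated start of the gene, from RefSeq on GRCm38.p6, where 7 of the 10 genes had an entry. Ctss lies at chr3:95526536-95526835 on the plus strand, Ctsc at chr7:88277835-88278134 on the plus strand and Ctsz at chr2:174438990-174439289 on the minus strand. Both strands were searched for GAGGAAG, a core of the site of the myeloid factor PU.1, TTCNNNGAA, the gamma interferon activated site, CACGTG, the core of the lysosomal gene element read by TFEB, and AGGTCANAGGTCA, the PPAR response element. Capitals mark the matches, which are written as they read on the gene's strand, so that CTTCCTC is GAGGAAG on the other strand.
Ctss: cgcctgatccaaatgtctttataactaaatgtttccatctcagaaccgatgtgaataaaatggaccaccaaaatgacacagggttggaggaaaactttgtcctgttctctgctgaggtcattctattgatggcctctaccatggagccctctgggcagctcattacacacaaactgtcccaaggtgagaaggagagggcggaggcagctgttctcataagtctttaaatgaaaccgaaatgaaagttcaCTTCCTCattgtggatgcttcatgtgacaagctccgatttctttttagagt
Ctsc: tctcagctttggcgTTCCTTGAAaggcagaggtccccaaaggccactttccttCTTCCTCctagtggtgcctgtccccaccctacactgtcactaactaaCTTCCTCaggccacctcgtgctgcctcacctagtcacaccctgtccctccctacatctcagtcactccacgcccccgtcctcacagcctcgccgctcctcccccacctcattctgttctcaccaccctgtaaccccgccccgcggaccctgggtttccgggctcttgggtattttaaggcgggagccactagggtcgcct
Ctsz: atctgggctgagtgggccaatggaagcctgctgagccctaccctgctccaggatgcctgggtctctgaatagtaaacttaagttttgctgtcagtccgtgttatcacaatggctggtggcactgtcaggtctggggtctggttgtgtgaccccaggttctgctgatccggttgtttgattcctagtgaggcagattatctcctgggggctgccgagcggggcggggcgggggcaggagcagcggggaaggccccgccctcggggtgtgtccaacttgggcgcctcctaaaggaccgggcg

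Ctss held 1 PU.1 core, beginning 1 base before the start. Ctsc held 2, beginning 197 and 150 bases before the start, and 1 gamma activated site, beginning 236 bases before it. Ctsz held none of the 4 motifs in this window. The PU.1 core occurred in 3 of the 8 promoter windows of cathepsin genes and in 13.6% of all 32851 windows of the same length. The third of these cathepsin windows was that of Ctsk, whose groups overlapped. The gamma activated site occurred in 1 of 8 and 8.30% of all. The PPAR element was in none of the 8 and in 0.0396% of all. A match is a match of letters only, and no binding was measured.

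Ctsk encodes cathepsin K, the collagen-cutting enzyme of osteoclasts, which activated fibroblasts and macrophages also make. It read 5.76, 7.20 and 4.55 on deficient arrays, against 4.97, 5.11 and 4.66 on control arrays (1450652_at). Deficient replicate 2 was far above the rest and deficient replicate 3 was the lowest of all 6, so the groups overlapped. The means were 5.84 ± 1.32 in deficient and 4.91 ± 0.23 in control samples, the difference was 0.92 with a 95% interval of -0.69 to 2.54, and the limma adjusted p was 0.763. It was 0.24 without deficient replicate 2, 1.59 on the 4 arrays without small intestine genes and -0.41 between the 2 arrays with them. In the reference gene table Ctsk and Ctss are neighbours on chromosome 3, with 1 predicted gene between them.

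Ctsl encodes cathepsin L, a broad endopeptidase of most cells, and Ctsb encodes cathepsin B, an abundant endopeptidase that also acts from the carboxyl end. Ctsl read 11.67, 12.54 and 10.62 on deficient arrays, against 10.12, 11.73 and 12.11 on control arrays (1451310_a_at). Its 2 lowest values were on the arrays with small intestine genes, 1 in each group. The Ctsl difference was 0.29 with a 95% interval of -1.42 to 2.00, and 0.18 on the 4 arrays without small intestine genes. Ctsb read 12.63, 13.03 and 12.16 on deficient arrays, against 12.19, 12.34 and 12.47 on control arrays (1417490_at). The Ctsb groups overlapped, at 12.61 ± 0.44 in deficient and 12.33 ± 0.14 in control samples, with a difference of 0.27 and an interval of -0.36 to 0.91. It was 0.42 on the 4 arrays without small intestine genes and -0.034 between the 2 arrays with them. The 5 probe sets of Ctsb above the limit did not give 1 value, and their differences ran from -0.013 to 0.81.

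Ctsh encodes cathepsin H, an aminopeptidase. It read 9.17, 9.56 and 8.0 on deficient arrays, against 8.76, 8.31 and 9.26 on control arrays (1418365_at). Deficient samples held both the highest and the lowest value. The difference was 0.14 with a 95% interval of -1.02 to 1.30, and a further probe set (1443814_x_at) gave 0.22. On the 4 arrays without small intestine genes Ctsh differed by 0.58, and between the 2 arrays with them by -0.76.

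Among the aspartic enzymes, Ctsd encodes cathepsin D, a general protease of lysosomes, and Ctse encodes cathepsin E, an endosomal enzyme of gut epithelium and immune cells. Ctsd read 10.47, 11.03 and 9.64 on deficient arrays, against 9.95, 10.46 and 10.56 on control arrays (1448118_a_at). The Ctsd groups overlapped, and their means of 10.38 ± 0.70 in deficient and 10.32 ± 0.32 in control samples differed by 0.057, with a 95% interval of -0.91 to 1.02. That difference was 0.24 on the 4 arrays without small intestine genes and -0.32 between the 2 arrays with them. Ctse was the only one of the 10 genes with a lower mean in deficient samples. It read 5.08, 6.99 and 3.81 on deficient arrays, against 5.71, 5.84 and 5.05 on control arrays (1418989_at). Deficient samples again held both the highest and the lowest value. The means were 5.29 ± 1.598 in deficient and 5.53 ± 0.42 in control samples, and the difference was -0.24 with an interval of -2.21 to 1.73. It was 0.59 on the 4 arrays without small intestine genes and -1.90 between the 2 arrays with them. A second Ctse probe set (1427797_s_at) differed by -0.62 and had its highest value, 6.17, on control replicate 1.

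Ctsa encodes cathepsin A, a serine carboxypeptidase that also protects the lysosomal sialidase Neu1 and beta-galactosidase Glb1 in a complex. It read 10.10, 10.19 and 9.73 on deficient arrays, against 9.60, 9.87 and 10.53 on control arrays (1448128_at). The means were 10.005 ± 0.24 in deficient and 10.002 ± 0.48 in control samples, and the difference of 0.0030 had a 95% interval of -0.71 to 0.71, which does not show that the groups were alike. It was -0.061 on the 4 arrays without small intestine genes and 0.13 between the 2 arrays with them. Promoters of Ctsa and Ctsd are shown because both hold the TFEB element core in pairs. Over all arrays their genes had the smallest differences of the 10. On the 4 arrays without small intestine genes the Ctsl difference, 0.18, was smaller than that of Ctsd, 0.24. These promoters were picked with the differences known, and whether TFEB bears on the differences was not tested. Capitals mark CACGTG. The Ctsa window, at chr2:164833523-164833822 on the plus strand, is the second of 2 annotated starts, and the Ctsd window lies at chr7:142387778-142388077 on the minus strand.
Ctsa: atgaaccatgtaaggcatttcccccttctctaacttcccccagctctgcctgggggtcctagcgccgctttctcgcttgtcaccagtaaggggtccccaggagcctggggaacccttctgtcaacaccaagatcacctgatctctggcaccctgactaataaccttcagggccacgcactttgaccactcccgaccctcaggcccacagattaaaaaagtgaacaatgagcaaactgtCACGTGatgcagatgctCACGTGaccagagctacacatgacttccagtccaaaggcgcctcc
Ctsd: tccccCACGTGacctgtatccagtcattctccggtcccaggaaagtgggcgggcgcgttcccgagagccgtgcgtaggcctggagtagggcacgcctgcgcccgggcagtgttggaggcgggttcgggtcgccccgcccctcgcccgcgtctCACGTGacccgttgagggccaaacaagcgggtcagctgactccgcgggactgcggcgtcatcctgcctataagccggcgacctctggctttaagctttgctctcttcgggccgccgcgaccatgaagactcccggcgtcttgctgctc

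In Ctsa the motif began 12 bases before and 5 bases after the start, and in Ctsd 245 and 98 bases before it. Windows with CACGTG made up 3 of the 8 cathepsin windows, the third being that of Ctsl, and 7.15% of all windows. The other Ctsa window held none of the 4 motifs.

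**Figure D2:**
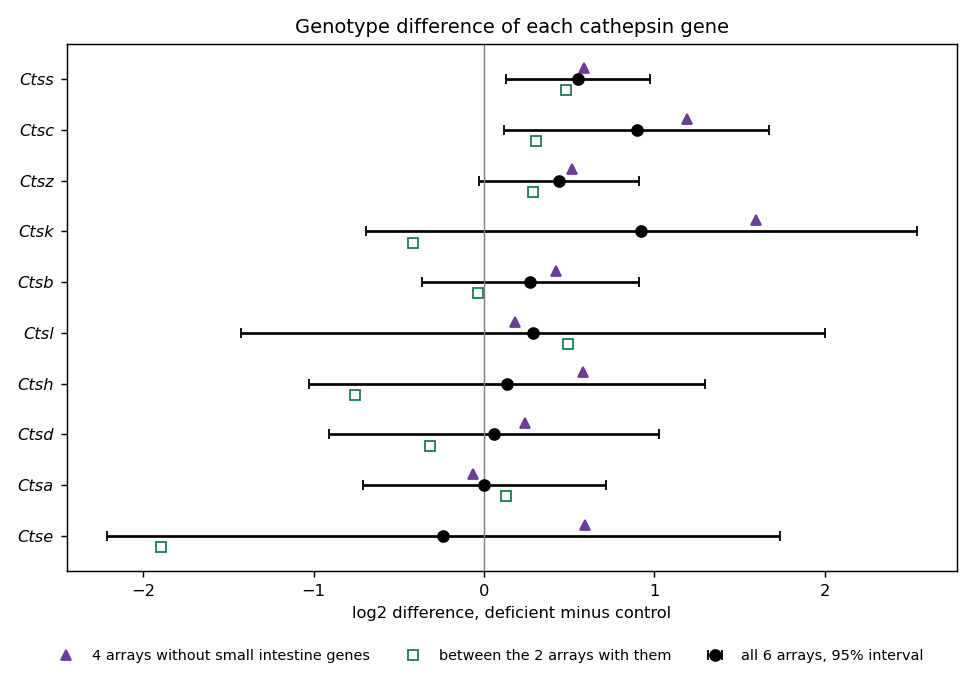
Log2 difference (deficient minus control) of each cathepsin gene from all 6 arrays with its 95% interval (black), on the 4 arrays without small intestine genes (triangles) and between the 2 arrays with them (open squares). Ctss, Ctsc and Ctsz lie above 0 in all 3 readings, while Ctse, Ctsh, Ctsk, Ctsb and Ctsd lie above 0 on the 4 arrays and below 0 between the other 2.

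The differences were also taken within each kind of array. On the 4 arrays without small intestine genes 9 of the 10 genes had a higher mean in deficient samples, with a median difference of 0.55, against 58.3% and 0.085 over all genes. Between the 2 arrays with such genes 5 of 10 were higher on the deficient array, with a median of 0.049, against 50.4% and 0.0034 over all genes. The first minus the second was 2.49 for Ctse and 2.01 for Ctsk, which read 3.81 and 4.55 on deficient replicate 3, near the limit. A test of this quantity rests on 1 array per group of the second kind, and passed for none of the 10 (limma adjusted p from 0.936 to 0.991) and for 0.00% of all genes. None of the 10 had an unadjusted p under 0.05 in it (5.16% of all genes), which does not show that the kinds of array agree. Without the 2 arrays Ctsc and Ctsk had an unadjusted p under 0.05, as did 13.9% of all genes. With the kind of array as a block these were Ctss and Ctsc, against 13.4% of all genes, and 0.00% passed after adjustment in either fit.

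Deficient replicate 2 held the highest value of 8 of the 10 genes, all but Ctss and Ctsa, against 28.9% of all genes tested. Averaged over the 10 genes after each was centred on its own mean, deficient replicate 2 stood at 0.82, deficient replicate 1 at 0.17 and deficient replicate 3 at -0.50. The control replicates stood at -0.32, -0.15 and -0.027. Without deficient replicate 2, 5 of 10 genes were higher in deficient samples and their median difference was -0.015, against 55.3% and 0.040 over all genes. Ctsa, Ctsb, Ctsd and Ctsl were lower on both arrays with small intestine genes than on any of the other 4, 4 of 10 genes against 21.0% of all, and none of the 10 was higher on both (13.9% of all). The lowest value of 7 of the 10 genes lay on one of these arrays, against 39.7% of all genes.

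**Figure D3:**
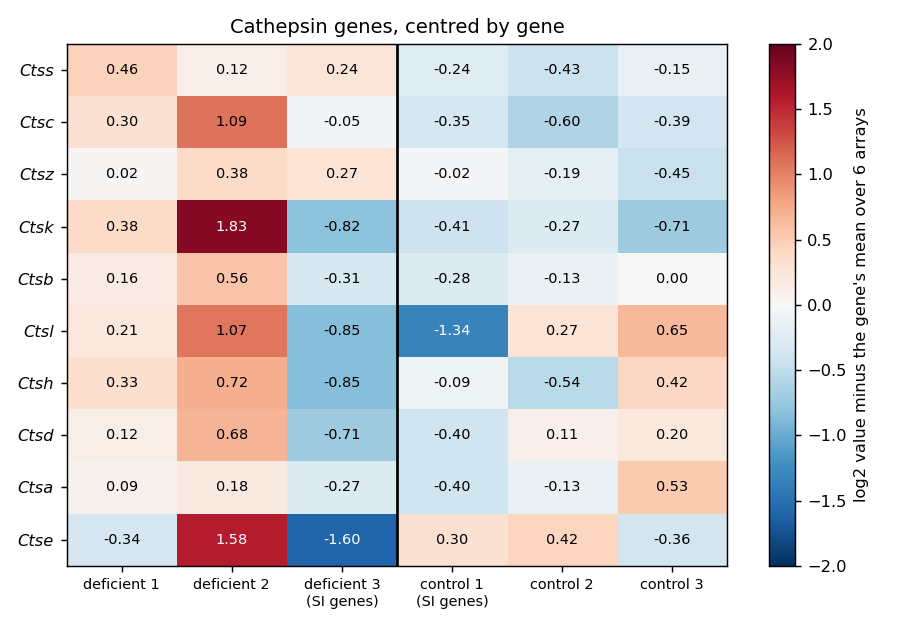
Log2 value of each cathepsin gene minus its mean over the 6 arrays, deficient arrays left and control arrays right, with SI marking small intestine genes. Deficient replicate 2 is highest for 8 genes, with 1.83 for Ctsk and 1.58 for Ctse, and Ctss is above its mean on all 3 deficient arrays and below it on all 3 control arrays.

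Probe sets of 1 gene gave a check within the family where there were several. Those of Ctsc gave 0.90 and 1.08, those of Ctsh 0.14 and 0.22, and those of Ctse -0.24 and -0.62. The Ctse pair was not alike by array. Deficient replicate 2 read 6.99, the highest value, on the brighter probe set and 3.93 on the dimmer. On the 4 arrays without small intestine genes these gave 0.59 and -0.077. For Ctsc, Ctsh and Ctse the dimmer probe set carries a suffix that marks possible cross-hybridisation. Ctss, Ctsk, Ctsl, Ctsd and Ctsa each rest on 1 probe set above the limit.

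**Figure D4:**
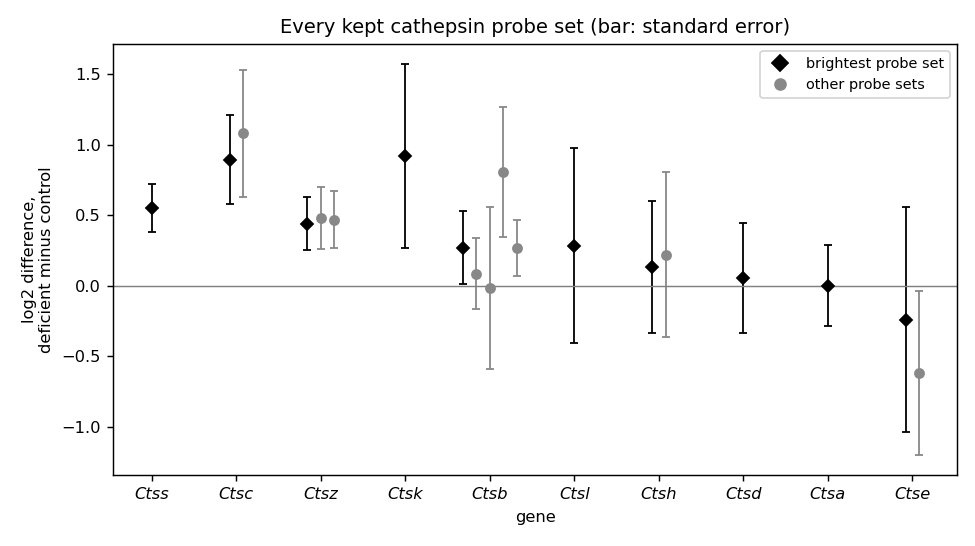
Log2 difference (deficient minus control) with its standard error for the 19 cathepsin probe sets above the limit for low values, the brightest of each gene as black diamonds. The 3 probe sets of Ctsz lie between 0.44 and 0.48, and the 5 of Ctsb spread from -0.013 to 0.81.

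For each gene the most similar profile was sought among the other genes tested, as the smallest root mean square difference of values centred by gene over the 6 arrays. The nearest to Ctss were Iars, a tRNA synthetase, and Ecd, at distances of 0.055 and 0.070. Ctsc was nearest to Nckap1l, an actin regulator of blood cells, at 0.069. Ctsa was nearest to Flcn, which encodes folliculin, at 0.043, and Ctse to Cldn4, an epithelial claudin, at 0.13. Ctsl was nearest to Bace1, at 0.089, Ctsb to Wnk1, at 0.056, and Ctsd to Phlda3, at 0.056. The nearest to Ctsh, Ctsk and Ctsz were Jam2, Myo5a and Gfm2, at 0.13, 0.19 and 0.061. For scale, the standard deviation of these genes over the 6 arrays ran from 0.30 for Ctsz to 1.05 for Ctse.

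The other cathepsins and related proteins went both ways. Of 16 listed, 6 were tested. In deficient samples 2 were higher, against 57.1% of all genes, 4 were lower and none passed. Napsa, the aspartic protease napsin A, read 5.93, 5.67 and 6.40 on deficient arrays, against 5.54, 3.89 and 4.84 on control arrays, a difference of 1.24, or 1.43 without the 2 arrays with small intestine genes. Ctso, which encodes cathepsin O, a cysteine protease, read 8.50, 8.54 and 8.37 on deficient arrays, against 8.74, 8.98 and 8.90 on control arrays. The Ctso difference was -0.41, or -0.43 without those 2 arrays. Both genes had groups that did not overlap, as did 13.5% of all genes tested. They were named for the smallest unadjusted p in this list. The placental cathepsins and Ctsg, a granule protease of neutrophils, were below the limit, and Ctsg read at most 2.29 on deficient and 2.53 on control arrays.

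The activator and partner proteins of cathepsins were listed too. Lgmn encodes legumain, which cuts single-chain cathepsins into their 2-chain forms. It read 9.88, 10.14 and 10.23 on deficient arrays, against 8.16, 9.17 and 9.20 on control arrays. The groups did not overlap, and Lgmn differed by 1.24, with a standard error of 0.33 and an adjusted p from limma of 0.659. It was 0.82 on the 4 arrays without small intestine genes and 2.07 between the 2 arrays with them. Neu1, the partner of cathepsin A, read 8.86, 8.39 and 9.13 on deficient arrays, against 10.14, 10.46 and 10.30 on control arrays. The groups did not overlap, and the difference of -1.51 had a limma adjusted p of 0.659. It was -1.76 on the 4 arrays without small intestine genes and -1.01 between the 2 arrays with them, while Ctsa differed by 0.0030 over all 6. Of the 5 partners and activators 3 were higher, against 57.1% of all genes, 2 were lower and none passed. Their median was 0.14, against 0.33 without the 2 arrays. Lgmn and Neu1 were named for the smallest unadjusted p in this list, and groups did not overlap for 13.5% of all genes.

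A list of cystatins, stefins and serpins had 24 genes, of which 6 were tested. Of these 5 were higher, against 57.1% of all genes, 1 was lower and none passed. Their median was 0.50, and 0.63 without the 2 arrays. Among them the cystatins, which inhibit cysteine cathepsins, differed by 0.13 for Cst3, -0.058 for Cst6, 0.56 for Cst7 and 0.44 for Cstb. Cst7 was near the limit, at no more than 4.29 on deficient and 4.26 on control arrays. Cst6 read 10.58 on deficient replicate 3 and 10.15 on control replicate 1, the arrays with small intestine genes, against 5.23 to 6.56 elsewhere. Serping1, the C1 inhibitor, and Serpinb6b belong to the serpins, which mostly inhibit serine proteases, and differed by 0.60 and 0.72. Cstb, cystatin B, read 11.90, 12.02 and 11.54 on deficient arrays, against 11.28, 11.25 and 11.61 on control arrays, and the groups overlapped by 1 control array. Of 18 genes tested for lysosomal delivery and biogenesis 6 were higher, against 57.1% of all genes, and 12 were lower. Their median was -0.027, against 0.071 without the 2 arrays, and none passed. The calcium channel gene Mcoln1 differed by -0.57. Gnptab, which makes the mannose 6-phosphate tag, differed by 0.28, with 7.73, 7.95 and 7.61 in deficient and 7.33, 7.53 and 7.59 in control samples.

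Known substrates, and genes of the pathways around them, were listed as well. Of 7 tested genes of MHC class II presentation, the pathway of cathepsin S, 6 were higher, against 57.1% of all genes. The median was 0.75 and none passed. Their median was 1.501 on the 4 arrays without small intestine genes and -1.51 between the 2 arrays with them, while Ctss was higher in both. Cd74, the invariant chain, differed by 0.37 with overlapping groups, by 1.39 on the 4 arrays and by -1.68 between the 2 arrays. H2-Eb1 differed by 2.63, with overlapping groups, and H2-DMb2 by 1.02 on a probe set marked as prone to cross-hybridisation. Of the 13 listed proteins around cathepsin C activation 2 were tested, and Gzma and Gzmb, the granzymes, differed by -0.68 and -0.19 with overlapping groups. On the 4 arrays without small intestine genes they differed by 0.0031 and 0.66, and between the 2 arrays with them by -2.04 and -1.89. The matrix substrates were higher for 8 of 8 genes, against 57.1% of all genes, with a median of 0.58, against 0.34 without the 2 arrays, and none passing. Of these Col4a1 and Col1a1 differed by 1.09 and 0.95. Each of the 8 was highest on deficient replicate 2, as was Ctsk.

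**Figure D5:**
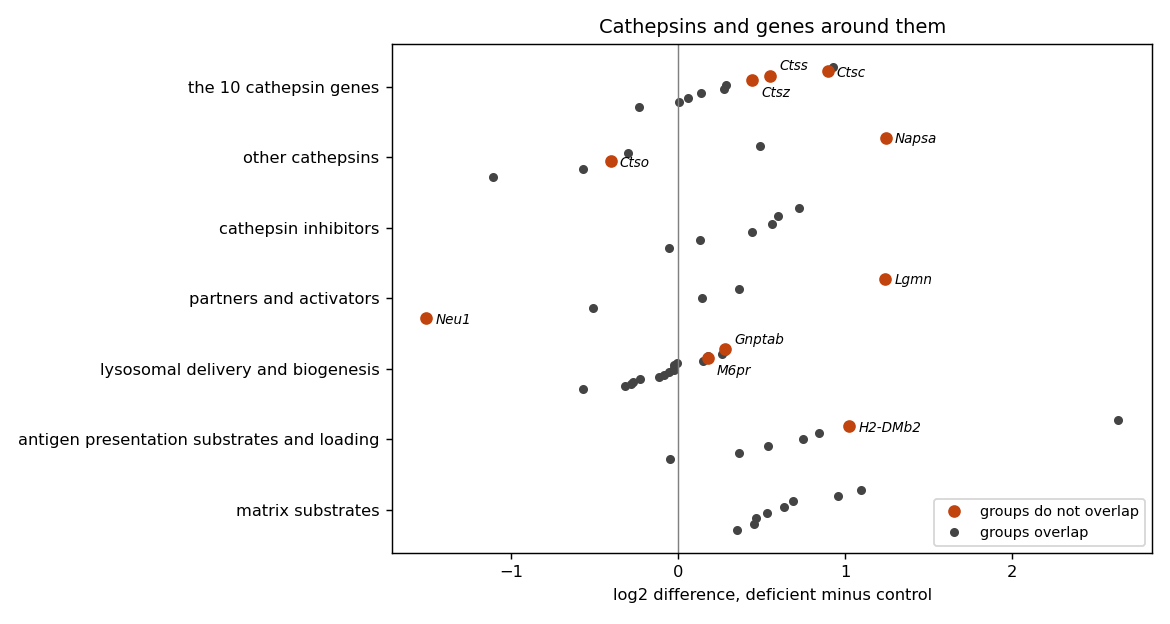
Log2 difference (deficient minus control) of each tested gene for the 10 cathepsins and 6 lists around them, with named larger orange points where the groups do not overlap. Lgmn and Napsa lie at 1.24, Neu1 at -1.51, and the 8 matrix substrates all lie above 0.

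Marker genes of cells that make cathepsins were read on the same arrays, and none of them passed. Of 14 macrophage markers 11 were higher, against 57.1% of all genes. The median over the list was 0.97, against 1.31 without the 2 arrays with small intestine genes. Ly86 differed by 1.203, Aif1, a calcium-binding protein of macrophages, by 1.504, and the scavenger receptor Msr1 by 2.20. The Fc receptor Fcgr1 differed by 2.18, and the integrin Itgam by 1.76. Itgam was above the limit on deficient arrays alone, so its direction was fixed by the limit. The count, medians and mean levels of the macrophage list include Itgam. The mean level of the list ran from 7.56 to 8.37 on deficient and from 7.17 to 7.55 on control arrays. Mertk, Cx3cr1 and Lyz2 were lower. Lyz2, whose promoter drives Cre in the deficient mice only, differed by -4.29. The count, medians and mean levels of the list include Lyz2 too. Of 13 neutrophil markers 5 were above the limit, S100a8, S100a9, Fpr2, Il1r2 and Mmp9, with mean levels of 6.08 to 9.91 on deficient and 4.16 to 5.97 on control arrays. Il1r2, a decoy receptor of interleukin 1, was above the limit on deficient arrays alone, which fixed its direction. The mean levels of the neutrophil list include Il1r2. The receptor gene Fpr2 differed by 2.26, or 3.11 without the 2 arrays. Cxcr2, Csf3r, Mmp8, Ngp, Ltf and Camp were below the limit. The 7 fibroblast markers ran from 10.54 to 12.23 on deficient and from 9.89 to 11.07 on control arrays, with a median difference of 0.53, or 0.46 without the 2 arrays, and 3 of them are collagen genes that also stand among the matrix substrates. Of 7 dendritic cell markers 4 were tested, at mean levels of 8.06 to 9.44 on deficient and 6.06 to 8.93 on control arrays, and Flt3, Zbtb46 and Xcr1 were below the limit. The median difference of the 4 was 1.05, against 1.97 without the 2 arrays and -0.97 between them. The macrophage, neutrophil and fibroblast lists were each highest on deficient replicate 2. Their part in the cathepsin differences was not tested. The 5 endothelial markers had a median of 0.23, or 0.34 without the 2 arrays. The 4 T and NK cell markers tested had a median of -0.44, but of 0.078 without the 2 arrays and -1.85 between them. Their mean levels ran from 4.84 to 6.60 on deficient and from 5.16 to 8.20 on control arrays. The 3 B and plasma cell markers tested had a median of -1.89, or -0.78 without the 2 arrays, and ran from 8.17 to 10.01 on deficient and from 9.52 to 11.55 on control arrays. The 6 epithelial markers ran from 13.08 to 13.30 on deficient and from 13.04 to 13.68 on control arrays.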

How the data were processed

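Each array has 1 log2 value per probe set, which the authors deposited; GCRMA is the tool named in the submitters' processing notes, with no version or settings. Dim probe sets sit near a shared lowest log2 value of 2.25, where differences cannot be read. Precision is limited by 3 arrays per group, and no 2 arrays held identical values. The labels call the replicates biological, and p-values rest on the spread between these mice. That spread includes the tissue profile of the 2 arrays with small intestine genes.

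Probe sets were named from the platform annotation, and 34958 named 1 gene. The limit of log2 4 on at least 3 arrays left 17031 of them and 10491 genes. The 2 groups were fitted in R 4.3.3 by the lmFit and eBayes functions of limma 3.58.1, two-sided and without a covariate, with p-values adjusted by Benjamini-Hochberg over all genes. The fit was tested on simulated data with 200 changed genes. It recovered 0% of them at a log2 change of 1, 69% at 2 and 86.5% at 4. All 10 cathepsin differences were smaller than 1 over the 6 arrays, so none passing does not show that none changed. Named genes were the 10 members, the 2 genes of smallest p in each pathway list, the nearest profiles, Pparg and Lyz2. All other genes with values, and the marker genes named, were chosen after their values were seen. The members, the lists and the split of the arrays by tissue profile were chosen with earlier results of these data known. Deviations of same-numbered arrays from their group means correlated at -0.58, 0.39 and -0.64. Those of deficient replicate 3 and control replicate 1, the arrays with small intestine genes, correlated at 0.71. Tissue profile enters these values, so they cannot show whether same-numbered arrays were paired. Xist was high on control replicate 2 only, at 12.11. Alternatives covered the limit, normalization, choice of probe sets, variance model, array weights, a floor, a block by replicate number or tissue profile, and left-out arrays. Protein sequences were not used here.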

Additional observations from a re-analysis of the deposited data

How the results depend on the processing

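No cathepsin gene passed in any of the 20 alternative settings that had a test. The smallest adjusted p from limma among them was 0.10 for Ctss and 0.127 for Ctsc, both with array weights. Over all genes, 0 passed in the main setting, where 783 had an unadjusted p under 0.05, while 1 passed with probe sets without cross-hybridisation suffixes, 1 with every probe set on its own and 2 with array weights. The number of cathepsin genes higher in deficient samples ran from 5 to 10 when each array was left out, with the lowest value without deficient replicate 2, and was 5 for the single pair of arrays that carried small intestine genes. The median difference of the 10 genes ran from -0.015 to 0.53 over left-out arrays. Ctss, Ctsc and Ctsz kept a positive difference in each setting in which they had a value, from 0.46 to 0.66, 0.31 to 1.19 and 0.29 to 0.54. Probe sets without suffixes left no value for Ctsz, Ctsd or Ctsl, and a limit of log2 6 left none for Ctse or Ctsk.

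Other signs depended on the setting, and the cause was not tested. With quantile normalization Ctsa was at -0.071 and Ctsd at -0.0037. With array weights Ctsa was at -0.20, Ctsd at -0.0091 and Ctsl at -0.13. With both arrays with small intestine genes left out Ctsa was at -0.061 and Ctse at 0.59. Over left-out arrays Ctsa ran from -0.20 to 0.27, Ctsd from -0.27 to 0.43, Ctse from -1.09 to 0.50, Ctsh from -0.19 to 0.59 and Ctsl from -0.31 to 0.78. With the replicate number as a block, a pairing that the correlations could not decide, 0 genes passed, and differences were those of the main setting.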
